A study of Mus musculus with 10 samples.

Results

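The keratins are the intermediate filament proteins of epithelial cells, and their genes were followed here through fibroblasts and the Sertoli-like cells made from fibroblasts. The family was taken as every array feature whose gene symbol is Krt followed by a number, which leaves out the keratin-associated proteins (Krtap). This gave 64 features of 52 genes, among 62976 features and 20738 named genes on the array. Of the 52 genes, 34 (with 39 features) passed a filter on dim values and were among the 16650 genes tested, and 18 did not pass it. Since a gene could pass through 1 group alone, counts over the 34 do not stand for the whole family.

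Total RNA of cultured mouse cells had been labelled with Cy3 and hybridised to 10 one-colour Agilent arrays, 1 sample each. Sertoli-like cells of embryonic kind, induced from fibroblasts and called ieSCs, came from 2 sources. Those derived from tail tip fibroblasts (TTFs) of females were on 4 arrays, those derived from mouse embryonic fibroblasts (MEFs) were on 4 arrays, and unconverted MEFs were on 2 arrays. Sertoli cells are the somatic epithelial cells that surround the germ cells in the testis cords. All 3 groups came from a congenic background labelled homo R26-M2rtTA, which encodes the transactivator that responds to doxycycline (dox), and all were kept for 2 weeks in F12/DMEM without dox at 20% O2 and 5% CO2. Both ieSC groups carried transgenes for Nr5a1, Wt1, Dmrt1, Gata4 and Sox9, and the MEFs carried none. The sources used here give neither the promoter of the transgenes, nor the age of the TTF donors, nor the sex of the MEFs. No array of unconverted TTFs was used here, so in the TTF-derived group the effects of conversion, of the starting fibroblast and of sex cannot be told apart from each other when it is set against MEFs. The 2 MEF arrays serve as control in both comparisons of ieSCs with MEFs. They share 1 name, so a spread between MEF preparations could not be seen, and the SDs of MEFs do not hold it. Arrays carry 5 names, 2 arrays to a name. An ieSC array is called here by its name number (preparation 1 or 2) and a letter, as in 2b. Whether the arrays of a name, or the preparations, are separate cultures is not given by the labels, so p-values measure the spread between these arrays, which may be technical in part.

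The values are deposited log2 intensities, so that a difference of 1 is a 2-fold change, and they are compared between samples for the same feature and never between genes. Levels under about 5.0 belong to the dim end, since the 40th percentile of the arrays lay between 4.988 and 5.023, and a difference that reaches into the dim end depends on the floor of the array. Keratin differences that passed and reach into the dim end are also given with dim values raised to the 40th percentile, and so are those named for other genes. The groups were checked against markers. Dhh, a ligand secreted by Sertoli cells, lay at 13.17 to 13.22 in TTF-derived ieSCs and at 12.06 to 12.28 in MEF-derived ieSCs, against 5.35 to 5.59 in MEFs. Amh, the Müllerian-inhibiting hormone of fetal Sertoli cells, lay near or in the dim end, at 3.65 to 4.53 in TTF-derived ieSCs, 4.32 to 5.46 in MEF-derived ieSCs and 4.17 to 4.31 in MEFs. Sox9, a Sertoli transcription factor and one of the transgenes, was lower in both ieSC groups (7.27 to 7.64 in TTF-derived and 7.72 to 8.18 in MEF-derived) than in MEFs (11.16 to 11.19). The fibroblast surface marker Thy1 lay at 4.43 to 4.75 and 4.80 to 5.64 in the ieSC groups, against 17.21 to 17.27 in MEFs. In bulk RNA, fewer cells of a type and less RNA per cell cannot be told apart.

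A keratin filament is built from pairs of 1 acidic type I and 1 basic type II keratin. In the mouse, type I genes lie in a cluster on chromosome 11 and type II genes in a cluster on chromosome 15, with the type I gene Krt18 near its type II partner Krt8 at the end of the chromosome 15 cluster. Krt8, Krt18, Krt7 and Krt19 are the keratins of simple, single-layered epithelia. Krt5 and Krt14 mark the basal layer of stratified epithelia such as epidermis, Krt1 and Krt10 the layers above it, and a further set builds hair and its root sheaths. In the human testis, keratin 18 is used as a marker of immature Sertoli cells, whereas mature Sertoli cells carry mainly vimentin filaments.

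The proximal promoters of 4 keratins described below are shown: Krt76 had the largest rise in both ieSC groups, Krt7 and Krt8 rose in TTF-derived ieSCs, and Krt18, which lies near Krt8, rose in MEF-derived ieSCs. Each is the 250 bases before the annotated gene start, 5′ to 3′ on the gene's strand, from RefSeq (GRCm38.p6): Krt7 at chr15:101412153-101412402 on the plus strand, Krt8 at chr15:102004343-102004592 on the minus strand, Krt18 at chr15:102027966-102028215 on the plus strand and Krt76 at chr15:101892921-101893170 on the minus strand. Capitals mark TATAAA (the TATA box), GGGCGG (the GC box) and TGANTCA (an AP-1 motif), each searched on both strands, so that CCGCCC is a GC box on the other strand. The table held 37 promoters of 36 keratin genes.
Krt7: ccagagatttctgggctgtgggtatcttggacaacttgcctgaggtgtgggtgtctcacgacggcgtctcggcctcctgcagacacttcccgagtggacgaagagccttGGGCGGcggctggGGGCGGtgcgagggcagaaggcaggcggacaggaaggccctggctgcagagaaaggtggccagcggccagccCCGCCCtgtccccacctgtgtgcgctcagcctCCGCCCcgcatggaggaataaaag
Krt8: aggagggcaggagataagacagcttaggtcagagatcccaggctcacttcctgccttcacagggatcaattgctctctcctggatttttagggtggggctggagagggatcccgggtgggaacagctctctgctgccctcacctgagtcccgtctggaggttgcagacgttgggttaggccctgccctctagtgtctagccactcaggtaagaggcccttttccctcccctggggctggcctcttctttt
Krt18: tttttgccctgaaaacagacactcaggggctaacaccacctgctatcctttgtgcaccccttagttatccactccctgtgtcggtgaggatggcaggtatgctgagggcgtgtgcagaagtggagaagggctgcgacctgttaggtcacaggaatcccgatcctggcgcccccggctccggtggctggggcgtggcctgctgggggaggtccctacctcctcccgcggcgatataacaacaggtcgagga
Krt76: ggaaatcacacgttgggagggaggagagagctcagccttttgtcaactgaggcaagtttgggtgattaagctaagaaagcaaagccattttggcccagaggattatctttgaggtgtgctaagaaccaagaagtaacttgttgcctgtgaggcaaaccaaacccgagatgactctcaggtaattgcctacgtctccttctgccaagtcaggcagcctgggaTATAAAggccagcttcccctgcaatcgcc

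In these windows Krt7 held 4 GC boxes and Krt76 held 1 TATAAA, while Krt8 and Krt18 held none of the 3 motifs. TATAAA was found in 17 of the 37 keratin promoters and in 12.4% of all 32851 promoters of the table. GGGCGG was found in 2 keratin promoters and in 32.7% of all promoters, and TGANTCA in 2 keratin promoters and in 6.75% of all. These are counts of letters and not of bound sites.

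Across the family, more tested keratins rose than fell in each ieSC group against MEFs, but the share that changed was no greater than over all genes. The filter shapes this balance, the medians and the counts by feature, class and type below. Among keratins that changed, Krt1, Krt13, Krt33a, Krt34, Krt36 and Krt76 were dim on both MEF arrays. They were kept through ieSC arrays alone, where they were higher. The other way, Krt35 was kept through the MEF arrays alone. The balance is therefore not read as a trait of the family. In TTF-derived ieSCs 12 of the 34 rose and 3 fell (limma, adjusted p under 0.05). That is 44.1% of the tested keratins, where 45.1% of all genes tested changed, 23.3% higher and 21.9% lower. In MEF-derived ieSCs 9 rose and 4 fell, which is 38.2% of the tested keratins. Of all genes 51.2% changed there, 27.2% higher and 24% lower. Between the ieSC groups, 8 keratins were higher and 4 lower in TTF-derived cells, which is 35.3% of those tested. Of all genes 36% differed, 16.8% higher and 19.3% lower. The median log2 difference of the tested keratins was 0.67 in TTF-derived ieSCs against MEFs and 0.51 in MEF-derived ieSCs against MEFs, beside medians of 0.06 and 0.10 over all genes. The mean of both ieSC groups, set against MEFs, gave 11 keratins higher and 4 lower, where 49.5% of all genes changed (25.9% higher and 23.6% lower). In all, 20 of the 34 changed in at least 1 comparison and 14 in none. Against MEFs, 6 keratins rose in both ieSC groups (Krt13, Krt15, Krt33a, Krt36, Krt76, Krt79) and 3 fell in both (Krt20, Krt35, Krt222). No keratin passed in opposite directions. Another 6 passed in the TTF-derived group and 4 in the MEF-derived group only, which is not by itself a test of a difference between those groups. The values of the groups did not overlap for 26 of the 34 (TTF-derived ieSCs and MEFs), 27 (MEF-derived ieSCs and MEFs) and 16 (TTF-derived and MEF-derived ieSCs). That is 76.5%, 79.4% and 47.1% of the tested keratins, where 72.1%, 76.3% and 48.3% of all genes did not overlap.

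Each feature was also tested by itself. Of the 39 kept keratin features, 16 rose and 3 fell in TTF-derived ieSCs against MEFs, where 40.5% of all kept features changed (22.4% higher and 18.1% lower). In MEF-derived ieSCs against MEFs 10 rose and 5 fell, where 46.3% of all changed (25.3% higher and 21% lower). Between the ieSC groups 9 were higher and 5 lower in TTF-derived cells, where 33.8% of all differed, and for the mean of both ieSC groups against MEFs 13 rose and 4 fell, where 44.6% of all changed (24.6% higher and 20% lower).

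**Figure D1:**
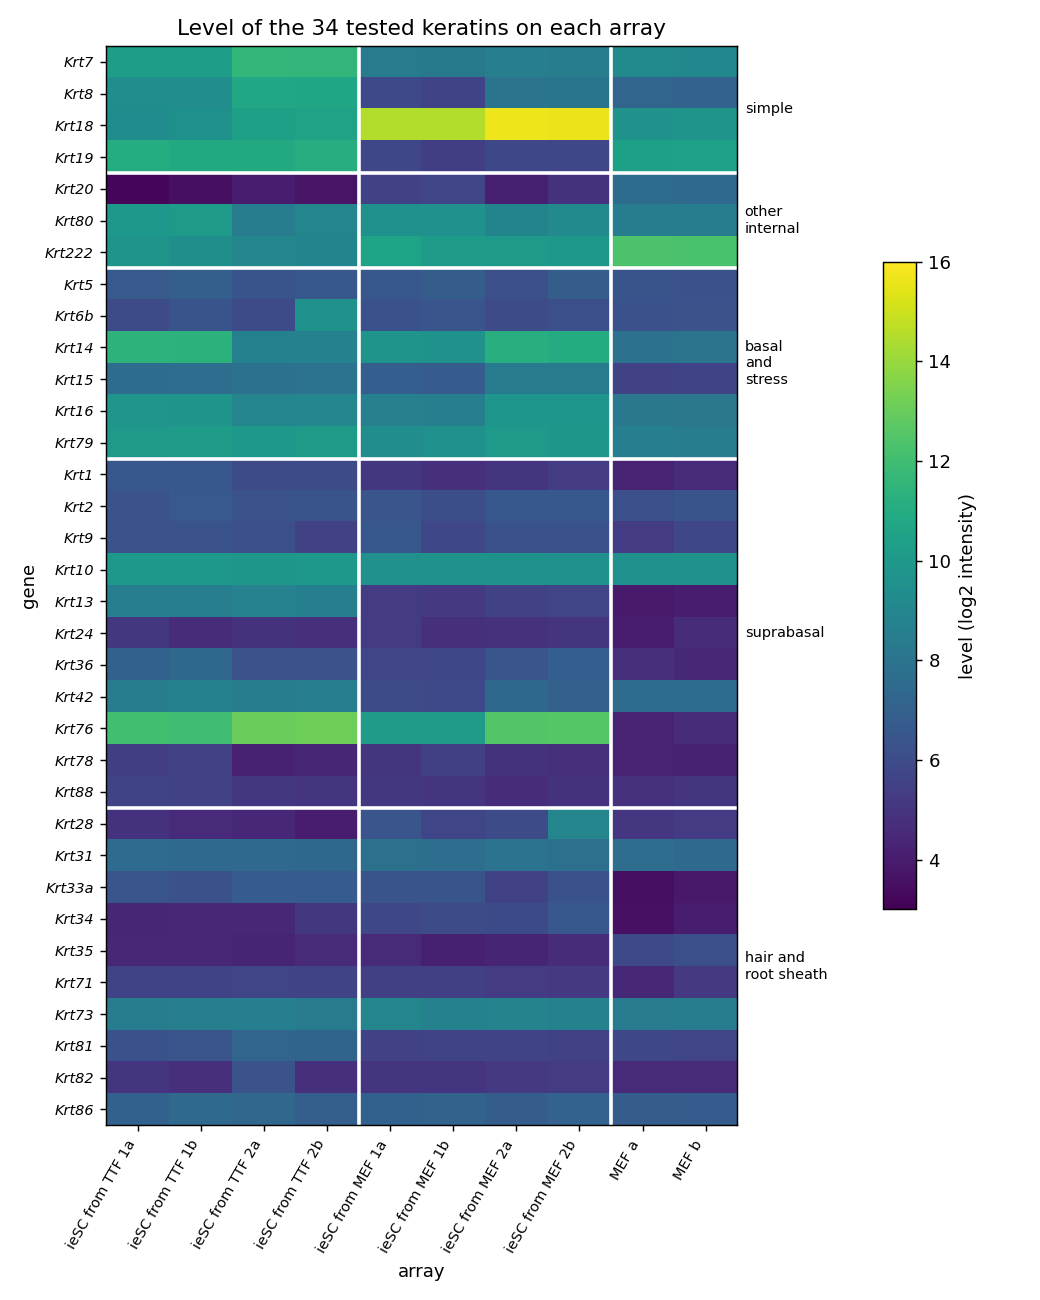
Levels (log2 intensity, colour) of the 34 tested keratins, 1 row per gene grouped by keratin class, on each of the 10 arrays, with white lines between groups and classes. Krt18 is brightest on the 4 arrays of MEF-derived ieSCs, Krt19 is dim there, and Krt76 is bright on all 8 ieSC arrays and dim on both MEF arrays.

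The 4 simple-epithelial keratins did not move together in the ieSCs. Krt18 rose 42.0-fold in the MEF-derived cells, in which Krt19 fell 26.2-fold, whereas Krt7 and Krt8 rose in the TTF-derived cells. All 4 differed between the ieSC groups, with Krt7, Krt8 and Krt19 higher and Krt18 lower in the TTF-derived cells. Krt7, Krt18 and Krt19 had only 1 feature each on the array, so their differences rest on it. Krt18, the type I partner of Krt8, had levels of 9.33, 9.53, 10.40 and 10.51 in TTF-derived ieSCs, of 14.53, 14.50, 15.67 and 15.61 in MEF-derived ieSCs, and of 9.66 and 9.71 in MEFs. All 4 MEF-derived arrays lay far above the rest, and the TTF-derived arrays lay on both sides of the MEF arrays. The log2 difference in Krt18 was 5.39 ± 0.45 (SE, adjusted p = 8.7e-06) for MEF-derived ieSCs against MEFs, 0.26 ± 0.45 (adjusted p = 0.693) for TTF-derived ieSCs against MEFs and -5.13 ± 0.37 (adjusted p = 9.1e-06) for TTF-derived against MEF-derived ieSCs. The 95% interval of the TTF-derived difference from MEFs ran from -0.76 to 1.28, so that a modest change in either direction could not be told from none.

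Krt19, a type I keratin that lacks the usual tail domain, went the other way. Its levels were 11.06, 10.91, 10.88 and 11.12 in TTF-derived ieSCs, 5.79, 5.43, 5.84 and 5.77 in MEF-derived ieSCs, and 10.41 and 10.42 in MEFs. The 3 groups did not overlap, and only the MEF-derived arrays came near the dim end. Krt19 was 4.71 ± 0.22 lower on the log2 scale in MEF-derived ieSCs than in MEFs (log2 difference -4.71, adjusted p = 1.8e-07) and 5.29 ± 0.18 higher in TTF-derived than in MEF-derived ieSCs (adjusted p = 7.5e-08). The smaller excess of TTF-derived ieSCs over MEFs, 0.58 ± 0.22, did not pass (adjusted p = 0.0538), with a 95% interval of 0.09 to 1.06, and it lay on the other side of the threshold in 8 of the 23 alternative settings run for it (adjusted p of 0.003 to 0.0456 there), as it did when each feature was tested by itself (0.0326).

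Krt8, the type II partner of Krt18, had levels of 9.38, 9.36, 10.74 and 10.71 in TTF-derived ieSCs, of 5.88, 5.64, 8.02 and 8.05 in MEF-derived ieSCs, and of 7.24 and 7.10 in MEFs. The TTF-derived arrays lay above all others, and the MEF-derived preparations fell on opposite sides of the MEF arrays, with preparation 2 above and preparation 1 below. Krt8 was 2.88 ± 0.77 higher (log2) in TTF-derived ieSCs than in MEFs (adjusted p = 0.0128) and 3.15 ± 0.63 higher in TTF-derived than in MEF-derived ieSCs (adjusted p = 0.0038). Neither call passed with the arrays of a name averaged first (adjusted p = 0.15 and 0.107). Without TTF-derived preparation 2 the first difference was 2.20 (adjusted p = 0.0756). The MEF-derived group differed from MEFs by -0.28 ± 0.77 (adjusted p = 0.796), with a 95% interval of -2.01 to 1.46, and by 0.86 without its preparation 1 (adjusted p = 0.209). A second Krt8 feature gave log2 differences of 2.62, -0.48 and 3.11 in the same 3 comparisons.

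Krt7, a type II keratin of ducts, mesothelium and other simple epithelia, had levels of 10.26, 10.28, 11.62 and 11.55 in TTF-derived ieSCs, of 8.36, 8.27, 8.56 and 8.46 in MEF-derived ieSCs, and of 9.15 and 9.08 in MEFs. The groups did not overlap, and the MEFs lay between the ieSC groups. Krt7 was 1.81 ± 0.39 higher (log2) in TTF-derived ieSCs than in MEFs (adjusted p = 0.0043) and 2.51 ± 0.32 higher than in MEF-derived ieSCs (adjusted p = 3.1e-04). With arrays of a name averaged, these calls had an adjusted p of 0.0999 and 0.0501. The MEF-derived group lay 0.70 ± 0.39 below MEFs (log2 difference -0.70, adjusted p = 0.169), with a 95% interval of -1.59 to 0.19, and this difference passed when TTF-derived preparation 1 or 2, whose Krt7 levels lie apart, was left out of the shared fit (adjusted p = 0.00154 and 0.00151).

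**Figure D2:**
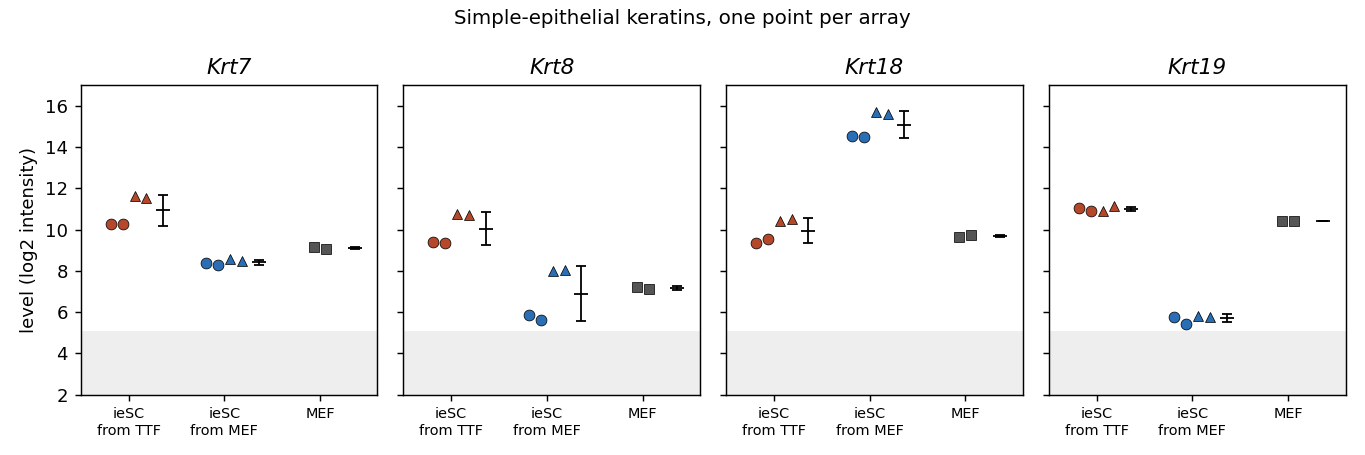
Levels (log2 intensity) of Krt7, Krt8, Krt18 and Krt19, 1 point per array, in TTF-derived ieSCs, MEF-derived ieSCs and MEFs. Circles are preparation 1, triangles preparation 2 and squares MEFs, bars are mean ± SD (n = 4, 4 and 2), and the grey band is the dim end of the arrays. Krt18 separates the MEF-derived arrays upwards and Krt19 separates them downwards, and Krt7 and Krt8 are highest in the TTF-derived arrays.

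Among the other keratins of internal epithelia, Krt20 and Krt222 were lower in both ieSC groups than in MEFs, Krt80 did not pass in any comparison and Krt23 was below the filter. Krt222, a truncated type I member of the family, had levels of 9.74, 9.48, 9.00 and 8.85 in TTF-derived ieSCs, of 10.56, 10.19, 10.01 and 9.94 in MEF-derived ieSCs, and of 12.39 and 12.27 in MEFs. No group overlapped another. The log2 difference was -3.06 ± 0.32 in TTF-derived ieSCs (adjusted p = 4.1e-05) and -2.16 ± 0.32 in MEF-derived ieSCs (adjusted p = 3.6e-04). TTF-derived cells lay 0.91 ± 0.26 below MEF-derived cells (log2 difference -0.91, adjusted p = 0.0219), which no longer passed without MEF-derived preparation 1 (-0.71, adjusted p = 0.0876), without TTF-derived preparation 2 (-0.56, adjusted p = 0.108) or with arrays of a name averaged (adjusted p = 0.129). A second Krt222 feature was below the filter.

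Krt20, a type I keratin of intestinal and urothelial surface cells, had levels of 3.21, 3.51, 4.01 and 3.68 in TTF-derived ieSCs, of 5.57, 5.72, 4.15 and 4.89 in MEF-derived ieSCs, and of 7.59 and 7.45 in MEFs. The MEF arrays were the only ones with all values above the dim end. The log2 differences from MEFs were -3.92 ± 0.51 for TTF-derived ieSCs (adjusted p = 1.9e-04) and -2.44 ± 0.51 for MEF-derived ieSCs (adjusted p = 0.0031). With dim values raised they were -2.51 and -2.19. The difference between the ieSC groups, -1.48 ± 0.42 (adjusted p = 0.0209), shrank to -0.32 (adjusted p = 0.187) with dim values raised, and it did not pass without TTF-derived preparation 1 (-1.24, adjusted p = 0.0785), without MEF-derived preparation 1 (-0.92, adjusted p = 0.105) or with arrays averaged (adjusted p = 0.108).

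The basal and stress keratins of stratified epithelium held 9 genes, of which 6 were tested. The class also took in Krt79 of sebaceous and follicle ducts, which is among those that rose in both ieSC groups. In each ieSC group 3 rose and none fell, and none differed between the ieSC groups. The share of 50% in each group stands near that of all genes, of which 45.1% and 51.2% changed and 36% differed between the ieSC groups. Krt15, a type I keratin of basal and hair follicle stem cells, had levels of 7.60, 7.68, 7.85 and 7.94 in TTF-derived ieSCs, of 6.89, 6.78, 8.34 and 8.35 in MEF-derived ieSCs, and of 5.53 and 5.62 in MEFs. Every ieSC array lay above both MEF arrays. Krt15 rose by 2.19 ± 0.45 in TTF-derived ieSCs (adjusted p = 0.0033) and by 2.01 ± 0.45 in MEF-derived ieSCs (adjusted p = 0.0046), on the log2 scale, and with arrays of a name averaged the adjusted p was 0.0909 and 0.0953. Krt79, a type II keratin of sebaceous and follicle ducts, averaged 10.06 ± 0.10 and 9.70 ± 0.31 in TTF-derived and MEF-derived ieSCs, against 8.56 ± 0.04 in MEFs (SD, n = 4, 4 and 2). Its rises of 1.50 ± 0.21 and 1.15 ± 0.21 passed (adjusted p = 3.3e-04 and 0.0016).

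Krt14, the type I keratin of basal keratinocytes, varied more between preparations than between groups of ieSCs. Its levels were 11.41, 11.37, 8.70 and 8.69 in TTF-derived ieSCs, 9.72, 9.69, 11.13 and 10.99 in MEF-derived ieSCs, and 7.89 and 7.99 in MEFs. The arrays of a name lay at most 0.13 apart, the preparations lay 2.69 and 1.35 apart in opposite directions, and every ieSC array exceeded both MEF arrays. The log2 difference from MEFs was 2.10 ± 0.87 in TTF-derived ieSCs (adjusted p = 0.0764) and 2.45 ± 0.87 in MEF-derived ieSCs (adjusted p = 0.0398). The second did not pass without either MEF array (adjusted p = 0.0818 without a, 0.0716 without b), without any 1 of the 4 MEF-derived arrays (0.0503 to 0.0624), without MEF-derived preparation 2 (0.184), with arrays of a name averaged (0.224) or with trend and robust variance moderation (0.055). Krt5, its type II partner in basal cells, did not pass in any comparison, with levels of 6.37 to 6.93 in TTF-derived ieSCs, 6.19 to 6.86 in MEF-derived ieSCs and 6.30 to 6.35 in MEFs.

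Krt16, a type I keratin induced in wounded and hyperproliferative epidermis, averaged 9.37 ± 0.46 and 9.24 ± 0.69 in TTF-derived and MEF-derived ieSCs, against 8.17 ± 0.02 in MEFs. The rise of 1.20 ± 0.42 in TTF-derived ieSCs (log2, adjusted p = 0.0436) lay close to the threshold and did not pass in 12 of the 23 alternative settings run for it: without any 1 of 9 arrays (all but TTF-derived 2a, adjusted p of 0.0503 to 0.0878), without TTF-derived preparation 1 (0.196), with averaged arrays (0.24) or without the filter (0.054). The difference of 1.06 ± 0.42 in MEF-derived ieSCs had an adjusted p of 0.0603. Krt6b, a type II stress keratin, did not pass. It had levels of 5.99, 6.38, 5.95 and 9.64 in TTF-derived ieSCs, against 5.95 to 6.43 in MEF-derived ieSCs and 6.27 to 6.31 in MEFs, so that a single array stood apart from its partner of the same name. Krt6a, Krt17 and Krt75 were below the filter.

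The class of suprabasal keratins of stratified epithelium held 16 genes, and it also took in corneal, tongue, nail and less studied members (Krt12, Krt36, Krt84, Krt42, Krt88, Krt90). Of 11 tested, 5 rose in TTF-derived and 3 in MEF-derived ieSCs, none fell, and 4 were higher in TTF-derived than in MEF-derived cells. These are 45.5%, 27.3% and 36.4% of the tested members, where 45.1%, 51.2% and 36% of all genes changed. Krt76, a type II keratin of the hard palate and other oral epithelium, had the largest difference of all keratins. Its levels were 12.04, 12.00, 13.02 and 13.13 in TTF-derived ieSCs, 10.11, 10.11, 12.52 and 12.59 in MEF-derived ieSCs, and 4.24 and 4.63 in MEFs. All 8 ieSC arrays were bright and both MEF arrays lay at the dim end, on the only feature of the gene (1). The log2 difference was 8.11 ± 0.78 in TTF-derived ieSCs (adjusted p = 2.6e-05) and 6.90 ± 0.78 in MEF-derived ieSCs (adjusted p = 6.6e-05). With dim values raised it was 7.54 and 6.32, that is 186-fold and 80.1-fold. Preparation 2 exceeded preparation 1 by 1.05 in the TTF-derived and by 2.44 in the MEF-derived cells, and the difference between the ieSC groups, 1.21 ± 0.64, did not pass (adjusted p = 0.176).

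Krt13, a type I keratin of internal stratified epithelia such as oesophagus, had levels of 8.57, 8.57, 8.76 and 8.62 in TTF-derived ieSCs, of 5.32, 5.15, 5.54 and 5.72 in MEF-derived ieSCs, and of 3.94 and 4.06 in MEFs. The groups did not overlap. Its log2 difference from MEFs was 4.63 ± 0.19 in TTF-derived ieSCs (adjusted p = 1.3e-07) and 1.43 ± 0.19 in MEF-derived ieSCs (adjusted p = 2.2e-04), and 3.20 ± 0.16 between the ieSC groups (adjusted p = 8.1e-07). With dim values raised the first was 3.62 (12.3-fold) and the second was 0.42 (adjusted p = 0.0788). A second Krt13 feature did not show this pattern: it had means of 6.07, 6.17 and 5.09 in TTF-derived ieSCs, MEF-derived ieSCs and MEFs, log2 differences of 0.97, 1.08 and -0.11 in the same order, and no call. The position of each feature within the gene is not used here, so the TTF-derived excess in Krt13 rests on 1 feature.

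The remaining changes of this class were smaller than the TTF-derived rises of Krt76 and Krt13. Krt36 lies directly beside the hair keratin Krt35 on chromosome 11, but it was counted in this class and not among the hair keratins. Krt36, a nail and tongue keratin, averaged 6.76 ± 0.53 and 6.20 ± 0.55 in TTF-derived and MEF-derived ieSCs, against 4.62 ± 0.21 in MEFs, and rose by 2.15 ± 0.44 and 1.59 ± 0.44 (log2, adjusted p = 0.0033 and 0.0143). With dim values raised the rises were 1.75 and 1.19 (adjusted p = 0.0075 and 0.0397). Its second feature rose by 1.46 and 1.25 (adjusted p = 0.0153 and 0.028 in a fit of all features), and with arrays of a name averaged neither call of the first feature passed (adjusted p = 0.0636 and 0.105). Krt1, the type II keratin of the spinous layer, averaged 6.28 ± 0.28, 5.04 ± 0.24 and 4.42 ± 0.16 in the same order of groups. It was 1.86 ± 0.29 higher in TTF-derived ieSCs than in MEFs (adjusted p = 6.2e-04), or 1.27 with dim values raised, and 1.24 ± 0.24 higher than in MEF-derived ieSCs (adjusted p = 0.0031), or 1.16 with dim values raised. Krt10, its type I partner, differed by only 0.33 ± 0.11 from MEFs and 0.30 ± 0.09 between the ieSC groups (adjusted p = 0.033 and 0.0275). The first of these did not pass without MEF array a or b (0.0773, 0.0539), without TTF-derived array 1b or 2b (0.0562, 0.0648), without MEF-derived array 2a or 2b (0.0555, 0.0505), with arrays of a name averaged (0.132) or with the mean of its features (log2 difference 0.12, adjusted p = 0.533). The second did not pass without TTF-derived array 1b or 2b (0.0514, 0.0593), MEF-derived array 2b (0.0547), TTF-derived preparation 1 (0.0521) or MEF-derived preparation 2 (0.0679), with arrays averaged (0.136) or with the mean of its features (0.0612). A second Krt10 feature showed no call. Krt42, a type I keratin of nail and other appendages, averaged 8.56 ± 0.10 in TTF-derived and 6.54 ± 0.73 in MEF-derived ieSCs, against 7.61 ± 0.01 in MEFs. Neither group passed against MEFs (adjusted p = 0.0826 and 0.051), but the ieSC groups differed by 2.02 ± 0.33 (adjusted p = 0.0013, and 0.0656 with arrays averaged). In the limma fit of all features, Krt42 passed in MEF-derived ieSCs against MEFs (log2 difference -1.065, adjusted p = 0.048). Krt2, Krt9, Krt24, Krt78 and Krt88 did not pass in any comparison, with log2 differences from MEFs of 0.13 to 0.64 in TTF-derived ieSCs. Krt4, Krt12, Krt77, Krt84 and Krt90 were below the filter.

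Of 19 hair and root sheath keratins 10 were tested, 2 rose and 1 fell in each ieSC group, and 2 differed between the groups. These are 30%, 30% and 20% of the tested members, below the shares over all genes (45.1%, 51.2% and 36%). Krt33a, a type I hair cortex keratin, had levels of 6.44, 6.21, 6.80 and 6.76 in TTF-derived ieSCs, of 6.38, 6.37, 5.53 and 6.30 in MEF-derived ieSCs, and of 3.51 and 3.90 in MEFs. Every ieSC array lay above the dim end and both MEF arrays lay in it. Krt33a rose by 2.85 ± 0.42 (adjusted p = 4.1e-04) and 2.44 ± 0.42 (adjusted p = 9.6e-04) on the log2 scale, or by 1.54 and 1.13 with dim values raised. Krt34, another type I hair cortex keratin, had levels of 4.39, 4.43, 4.47 and 5.10 in TTF-derived ieSCs, of 5.75, 5.97, 5.94 and 6.55 in MEF-derived ieSCs, and of 3.58 and 3.98 in MEFs. It rose in the MEF-derived cells by 2.27 ± 0.44 (adjusted p = 0.002), or 1.04 with dim values raised, and was 1.45 ± 0.36 lower in TTF-derived than in MEF-derived cells (log2 difference -1.45, adjusted p = 0.0115), or -1.02 with dim values raised (adjusted p = 0.0087). Both MEF values and 3 of 4 TTF-derived values lay in the dim end. Krt33a, Krt33b, Krt34 and Krt31 lie side by side on chromosome 11, and Krt81 and Krt86 do so on chromosome 15, with Krt87 near them. How alike their sequences are was not examined, and a probe may also take up RNA of a related gene.

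Krt35, a type I keratin of the hair matrix and cuticle, averaged 4.45 ± 0.09 and 4.44 ± 0.25 in TTF-derived and MEF-derived ieSCs, against 6.03 ± 0.19 in MEFs. It fell by 1.57 ± 0.29 and 1.59 ± 0.29 on the log2 scale (adjusted p = 0.0017 and 0.0014), or by 1.02 in both with dim values raised. Krt81, a type II hair cortex keratin, averaged 6.79 ± 0.51, 5.60 ± 0.08 and 5.75 ± 0.08 in TTF-derived ieSCs, MEF-derived ieSCs and MEFs. It was 1.04 ± 0.29 higher in TTF-derived ieSCs than in MEFs (adjusted p = 0.0156) and 1.20 ± 0.24 higher than in MEF-derived ieSCs (adjusted p = 0.0037), and neither passed with arrays of a name averaged (adjusted p = 0.137 and 0.0904). Krt28, Krt31, Krt71, Krt73, Krt82 and Krt86 did not pass in any comparison of genes. When each feature was tested by itself (limma), Krt71 passed in TTF-derived ieSCs against MEFs (0.84, adjusted p = 0.0289). Krt71 also passed there in the mean of both ieSC groups (0.67, adjusted p = 0.0441). Krt31 passed there between the ieSC groups (log2 difference -0.36, adjusted p = 0.0403). Krt28, a type I inner root sheath keratin, had 1 high array of 8.90 among MEF-derived levels of 6.42, 5.72 and 6.02, against 4.02 to 4.93 in TTF-derived ieSCs and 5.06 to 5.25 in MEFs. The other 9 genes (Krt25, Krt26, Krt27, Krt32, Krt33b, Krt39, Krt40, Krt72, Krt87) were below the filter.

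**Figure D3:**
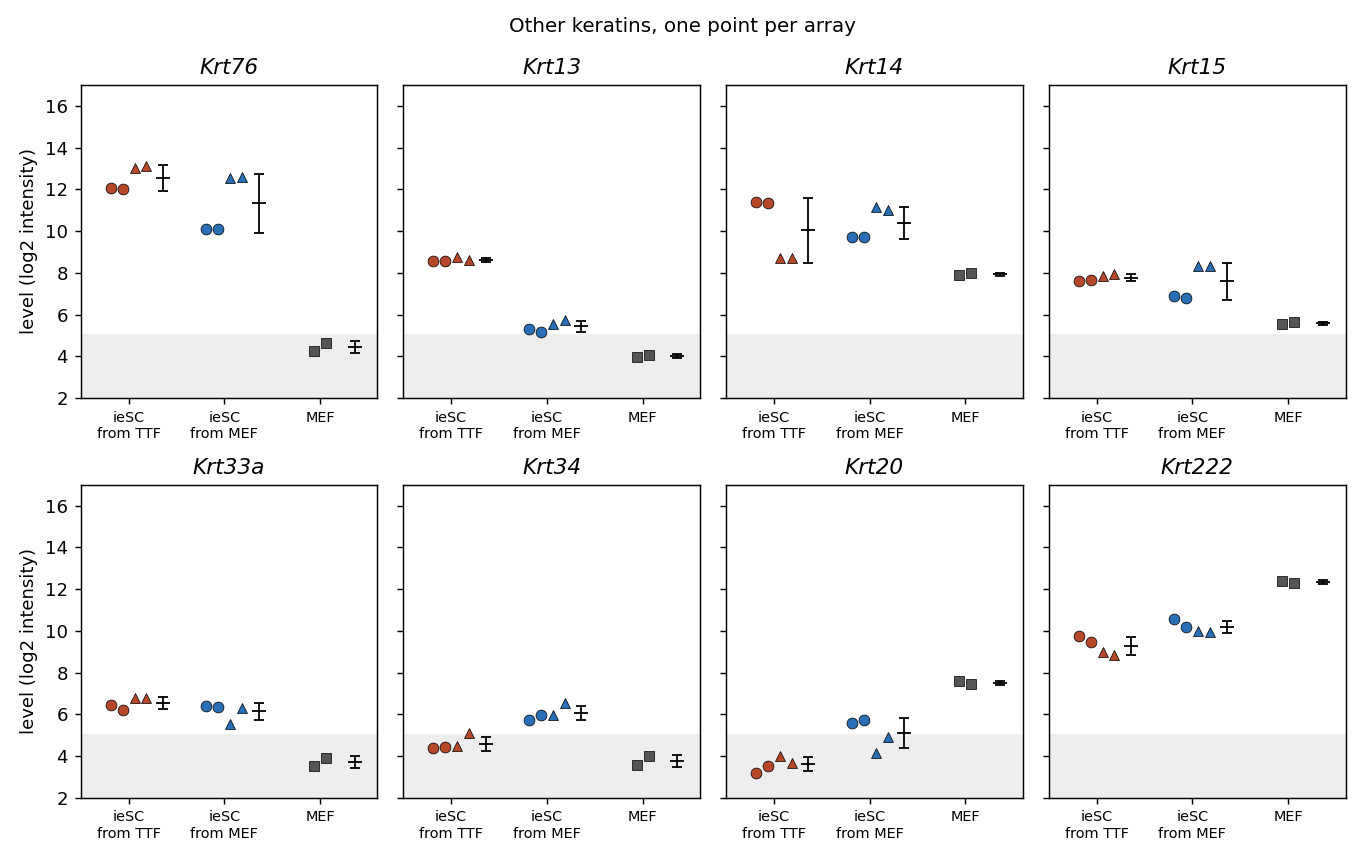
Levels (log2 intensity) of 8 further keratins, 1 point per array, in TTF-derived ieSCs, MEF-derived ieSCs and MEFs. Symbols, bars (mean ± SD, n = 4, 4 and 2) and the grey dim band are those of the plot of simple-epithelial keratins. Krt76 rises out of the dim band in all 8 ieSC arrays, Krt14 divides by preparation, and Krt20 and Krt222 are highest in MEFs.

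By filament type, 6 of 18 tested type I keratins rose and 3 fell in TTF-derived ieSCs, and 7 rose and 4 fell in MEF-derived ieSCs. Of 16 tested type II keratins, 6 rose in TTF-derived and 2 in MEF-derived ieSCs, and none fell in either. The share that changed was 50% and 61.1% of type I and 37.5% and 12.5% of type II keratins, where 45.1% and 51.2% of all genes changed, and whether the types differ was not tested. On chromosome 15, Krt76 lay between Krt77 and Krt4, both below the filter, and Krt8 and Krt18, with 2 genes between them, differed between the ieSC groups in opposite directions. On chromosome 11, Krt13, Krt15 and Krt19 were direct neighbours: Krt13 and Krt15 rose in both ieSC groups, and Krt19 fell in the MEF-derived group alone, with the difference between the ieSC groups given above.

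**Figure D4:**
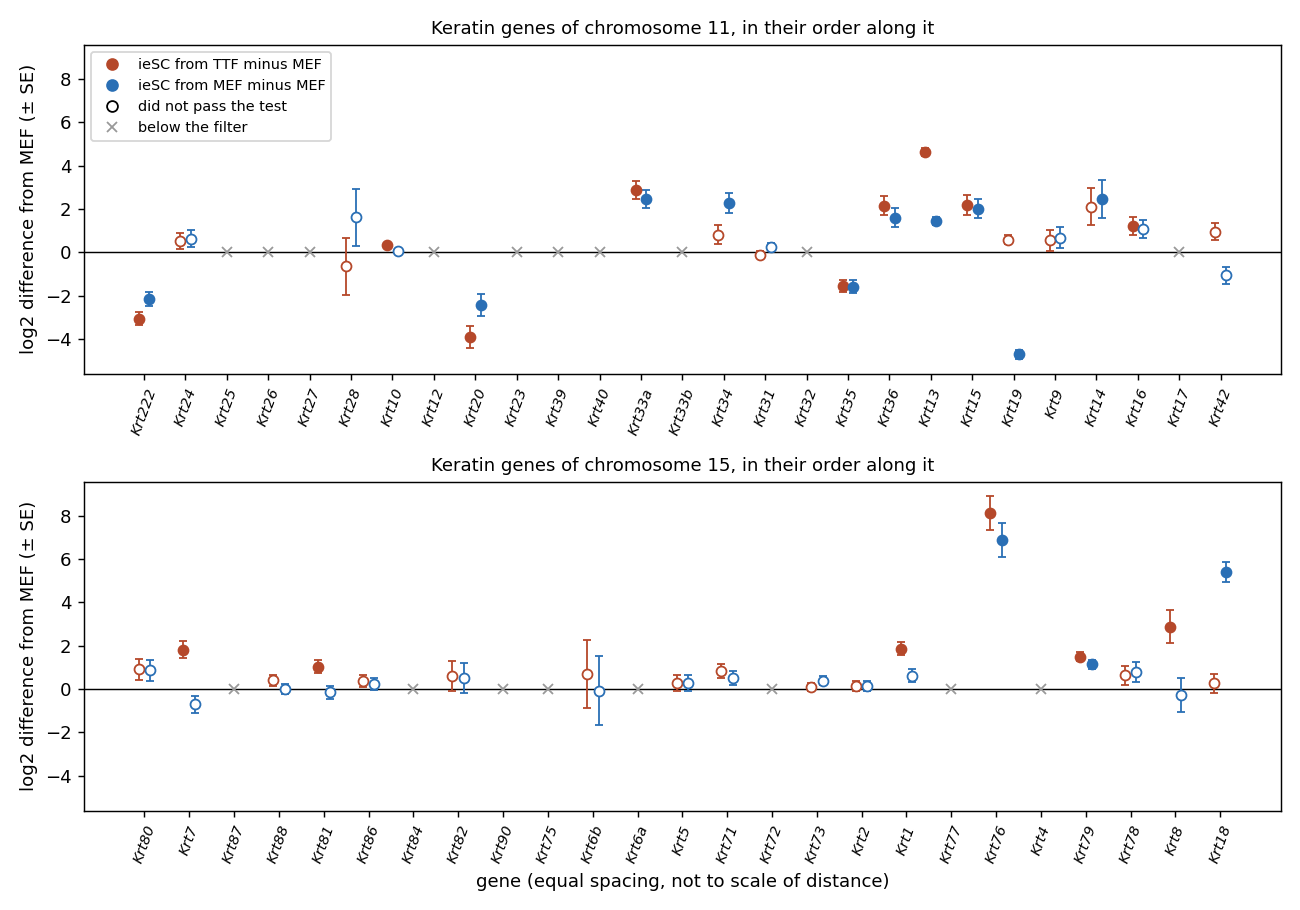
Log2 difference from MEFs (± SE) of TTF-derived ieSCs (red) and MEF-derived ieSCs (blue) for the keratin genes of chromosomes 11 and 15, in their order along the chromosome at equal spacing. Filled points passed at an adjusted p under 0.05, open points did not, and crosses are genes below the filter. Krt76 and, in MEF-derived cells, Krt18 show the largest rises.

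Of the genes that encode other intermediate filament proteins, 15 of 16 were tested. Of these, 6 rose and 4 fell in TTF-derived ieSCs, 4 rose and 2 fell in MEF-derived ieSCs, and 3 were higher and 4 lower in TTF-derived than in MEF-derived cells. Against MEFs 66.7% and 40% of them changed, where 45.1% and 51.2% of all genes did. Prph, which encodes the neuronal filament protein peripherin, averaged 16.94 ± 0.28 and 14.65 ± 0.21 in TTF-derived and MEF-derived ieSCs, against 5.17 ± 0.07 in MEFs, and rose by 11.77 ± 0.24 and 9.48 ± 0.24 (log2, adjusted p = 4.1e-09 and 8.2e-09). Nes, which encodes nestin of progenitor cells, rose by 2.72 ± 0.22 and 4.65 ± 0.22 (adjusted p = 8.4e-06 and 2.2e-07). Synm (synemin) rose by 2.62 and 0.98 and Sync (syncoilin) by 0.83 and 1.38, and each passed in both groups. Des, the muscle filament gene, fell by 3.82 and 2.29 (log2 differences -3.82 and -2.29), and Nefm, a neurofilament subunit, fell too (-2.41 and -2.31, or -1.70 and -1.76 with dim values raised). In the TTF-derived group alone, Lmnb1 (1.59) and Bfsp2 (1.46) rose, and Nefl (-1.37) and Bfsp1 (-1.30) fell against MEFs. Between the ieSC groups Lmnb1, Nefl and Bfsp1 differed too. With dim values raised, Nefl was -0.76 in TTF-derived ieSCs against MEFs (adjusted p = 0.0042) and 0.49 in MEF-derived ieSCs against MEFs, which then passed (adjusted p = 0.0314), and the difference of Nefl between the ieSC groups was -1.25, in place of -1.86. Vim, which encodes the vimentin of both fibroblasts and Sertoli cells, had levels of 17.49 ± 0.23, 17.72 ± 0.05 and 17.46 ± 0.09 in TTF-derived ieSCs, MEF-derived ieSCs and MEFs, and did not pass, nor did Gfap, Ina, Lmna and Lmnb2. Nefh was below the filter.

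The list of keratin linkers and partners (plakins, desmosomal plaque proteins and keratin-binding factors) had 18 of 20 genes tested, of which 8 rose and 1 fell in TTF-derived ieSCs, 10 rose and 2 fell in MEF-derived ieSCs, and 3 were higher and 5 lower in TTF-derived than in MEF-derived cells. Against MEFs 50% and 66.7% of them changed, where 45.1% and 51.2% of all genes did. The median difference from MEFs was 0.45 and 0.73, against 0.06 and 0.10 over all genes. Desmoplakin (Dsp), which ties keratin filaments to desmosomes, lay at 10.88 to 11.25 in TTF-derived and 11.20 to 11.86 in MEF-derived ieSCs, against 5.86 to 5.91 in MEFs, and rose by 5.15 ± 0.22 and 5.67 ± 0.22 (adjusted p = 1.4e-07 and 6.9e-08). The plakins of the cornified envelope, envoplakin (Evpl) and periplakin (Ppl), rose by 4.80 and 5.98 and by 6.55 and 5.98. Plakoglobin (Jup) rose by 1.91 and 1.63. Plec, the broad cytoskeletal linker, did not pass (0.29 and 0.17). Hspb1, a small heat shock protein that binds keratins, lay 0.54 above MEFs in TTF-derived and 2.20 below MEFs in MEF-derived ieSCs (log2 differences 0.54 and -2.20, adjusted p = 0.033 and 6.2e-06), which is the same order of groups as for Krt19.

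**Figure D5:**
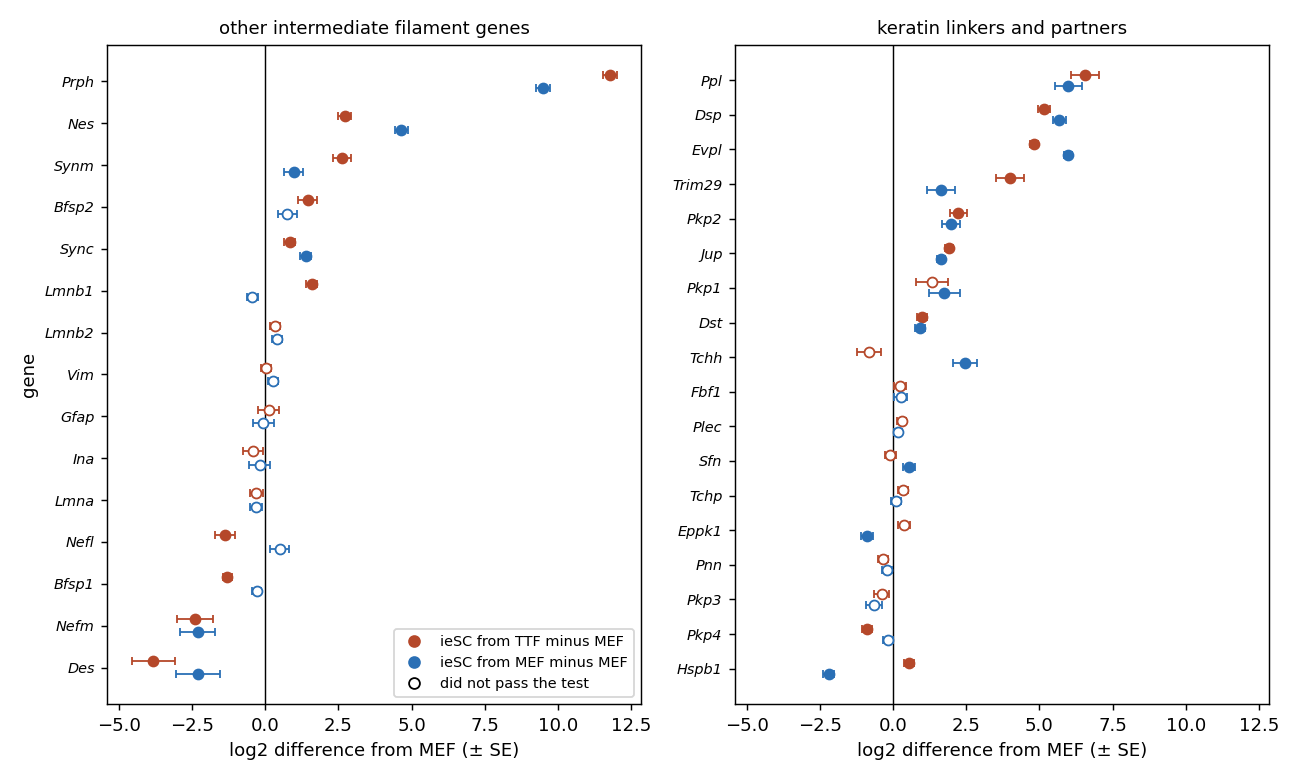
Log2 difference from MEFs (± SE) of TTF-derived ieSCs (red) and MEF-derived ieSCs (blue) for the 15 tested genes of other intermediate filaments (left) and the 18 tested keratin linkers and partners (right). Filled points passed at an adjusted p under 0.05. Prph, Ppl, Dsp and Evpl lie far to the right in both groups, and Vim and Plec lie near 0.

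Markers of other cell types were set beside the keratins, and their part in the keratin changes was not tested. Of 14 keratinocyte markers with a feature 9 were tested, with 4 higher and 1 lower in TTF-derived ieSCs and 5 higher and 1 lower in MEF-derived ieSCs (55.6% and 66.7% changed, beside 45.1% and 51.2% of all genes). Their mean level per array was 8.44 to 8.89 in TTF-derived ieSCs, 9.80 to 9.89 in MEF-derived ieSCs and 7.72 to 7.75 in MEFs. Suprabasin (Sbsn, log2 difference of 4.84 for the mean of both ieSC groups), Perp (3.40), Fgfbp1 (2.35) and Lgals7 (1.38) rose, the last pair from the dim end in MEFs (1.55 and 1.20 with dim values raised). In the same mean Itgb4, an integrin of hemidesmosomes (-1.14, adjusted p = 0.0075), and Lor, which encodes loricrin of the cornified envelope (-0.72, adjusted p = 0.0154), fell. Trp63, the master factor of stratified epithelium, did not pass (0.18 and 0.24). Trp63 had 4 features, of which 3 were kept, and these values are those of the kept feature with the highest mean. On that feature the mean level lay far above the dim end in all 3 groups. It was 11.31 in TTF-derived ieSCs, 11.36 in MEF-derived ieSCs and 11.13 in MEFs. The other Trp63 features are not given here. The desmosomal cadherins Dsg3, Dsc3 and Dsg1a and the markers Krtdap and Csta1 were below the filter. Involucrin (Ivl), a cornified envelope protein, passed in MEF-derived ieSCs only (5.99, adjusted p = 0.018), and the ieSC groups differed (-4.98, adjusted p = 0.024). Its level was 6.09, 5.99, 5.70 and 9.82 in TTF-derived ieSCs, against 11.41 to 12.39 in MEF-derived ieSCs and 5.75 to 6.03 in MEFs, so that TTF-derived array 2b stood apart from its partner 2a. Without array 2b the ieSC groups differed in Ivl by -6.00 (adjusted p = 3.2e-06), and without TTF-derived preparation 1 or MEF-derived preparation 1 the difference did not pass (adjusted p = 0.0656 and 0.0749). With Ivl left out, the mean level of the keratinocyte list was 8.77 to 9.19 in TTF-derived ieSCs, 9.55 to 9.65 in MEF-derived ieSCs and 7.931 to 7.997 in MEFs.

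Of 24 markers and factors of simple epithelium 18 were tested, and 6 rose and 2 fell in each ieSC group, which is 44.4% of those tested in each, where 45.1% and 51.2% of all genes changed. The mean level was 8.09 to 8.27, 8.05 to 8.38 and 7.74 to 7.77 in TTF-derived ieSCs, MEF-derived ieSCs and MEFs. Claudin 3 (Cldn3, log2 difference of 6.81 for the mean of both ieSC groups) and the epithelial transcription factors Tfap2a (3.11) and Grhl1 (2.79) rose, and P-cadherin (Cdh3, -7.38) fell. Cldn3 lay at the dim end on both MEF arrays and Cdh3 on all 8 ieSC arrays, and with dim values raised their differences were 5.95 and -6.68. Foxa1, another transcription factor of the list, went down in the same mean (-3.41, or -2.15 with dim values raised, limma adjusted p = 1.6e-08 there). E-cadherin (Cdh1) and Epcam, which define most simple epithelia, were below the filter, with Cdh1 at 2.82 to 6.64 and Epcam at 4.12 to 5.16 over all arrays, and so were Grhl2, Ovol1, Elf3 and Tfap2c.

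Mesothelium, an epithelium of mesodermal origin, expresses simple keratins together with Wt1, which is also a transgene here. All 12 mesothelial markers were tested, and 11 rose and 1 (Bnc2) fell in TTF-derived ieSCs and 10 rose and 1 (Bnc2) fell in MEF-derived ieSCs, where 45.1% and 51.2% of all genes changed (23.3% and 27.2% higher). The mean level was 14.34 to 14.70 in TTF-derived and 13.75 to 14.43 in MEF-derived ieSCs, against 10.37 in both MEF arrays. Aldh1a1 (5.65), Wt1 (5.60), Msln (4.81) and Upk3b (4.53) rose in the mean of both ieSC groups, and some of these genes are also known in the embryonic gonad. Of the 10 fibroblast markers, 1 rose and 9 fell in TTF-derived ieSCs and 8 fell in MEF-derived ieSCs, where 21.9% and 24% of all genes were lower. Their mean level was 8.54 to 9.33 and 8.14 to 8.60 in the ieSC groups, against 15.08 to 15.10 in MEFs. Thy1 (-12.30), Col1a2 (-11.02), Fap (-9.19) and Pdgfra (-4.76) fell in the mean of both ieSC groups. Fap lay in the dim end on all 8 ieSC arrays and Thy1 on 4 TTF-derived arrays and 1 MEF-derived array, and with dim values raised their differences were -7.90 and -12.04.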

How the data were processed

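Total RNA of 10 cell samples was measured on Agilent arrays. Per the labels' protocols, RNA was extracted with a Qiagen RNeasy kit and labelled with Cy3. The deposited table holds log2 intensities; per the submitters' processing notes limma was used (version not given). Values ran from 0.288 to 19.02, from which the base of the logarithm was inferred. How background was corrected is not given in those sources, and there are no detection flags. Symbols came from the platform annotation, with 31465 features naming 1 symbol, 0 several and 31511 none. They were updated through RefSeq (GRCm38.p6): 29050 features matched by accession and 3282 took a newer symbol, 63 and 4 of them keratin features. Probe names are not used here, so repeat spots were not averaged.

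Features above the 40th percentile on 2 or more arrays were kept (42617 features), and the kept feature with the highest mean stood for a gene. Means of the 3 groups were fitted to all 10 arrays with limma 3.58.1 (R 4.3.3, statmod 1.5.0), with the array name as a random block (correlation 0.606), and the 2-sided moderated p was adjusted by Benjamini-Hochberg over 16650 genes, with a threshold of 0.05. There were 7 residual degrees of freedom. The fit was tested on simulated data. The number of arrays limits the precision: the median SE of the tested keratins was 0.398 for TTF-derived ieSCs against MEFs and 0.325 between the ieSC groups. Groups were taken from the source names.

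The members, the keratin classes and the other gene lists were chosen with earlier results of these data known. Every keratin is accounted for. Array values are given for Krt7, Krt8, Krt18, Krt19 and the 8 other changed keratins with the largest difference; other changed keratins are given by group, other intermediate filament genes wherever tested, and up to 4 members of each other list by smallest p of the mean of both ieSC groups against MEFs. Krt5, Krt6b, Krt28, Plec, Hspb1, Trp63, Itgb4, Lor, Ivl, Foxa1, Bnc2 and the markers below the filter were named after their values were seen. Alternatives changed the filter, the floor, the feature of a gene, the block, the normalization and the variance model, averaged arrays of a name, and left out arrays or preparations.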

Additional observations from a re-analysis of the deposited data

Results flagged for a closer look

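Of 34 keratins tested for a difference between the ieSC groups, 12 differed (limma, adjusted p under 0.05), where 36% of all genes did. The log2 difference of TTF-derived minus MEF-derived ieSCs was positive for Krt19 (5.29), Krt13 (3.20), Krt8 (3.15), Krt7 (2.51), Krt42 (2.02), Krt1 (1.24), Krt81 (1.20) and Krt10 (0.30). It was negative for Krt18 (-5.13), Krt20 (-1.48), Krt34 (-1.45) and Krt222 (-0.91).

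In 5 of 68 sets of 4 ieSC arrays of a keratin, 1 array stood far from the other 3 by Dixon's criterion. For 4 independent values chance alone gives this in about 1 of 20 sets. The arrays of a set share names in pairs, so that rate does not apply here. The high arrays were Krt6b on TTF-derived 2b (9.64), Krt82 on TTF-derived 2a (6.32), Krt34 on TTF-derived 2b (5.10, near the dim end) and Krt2 on TTF-derived 1b (6.64), and the low array was Krt33a on MEF-derived 2a (5.53). Krt6b and Krt82 stood apart from the other array of the same name, which lay at 5.95 and 4.73.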

How the results depend on the processing

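For 61 keratin differences, 22 to 25 alternatives each were run. Of 55 that passed the test, 32 passed with the same direction under every alternative run for them and 44 under every one run but averaging. Averaging the arrays of a name, which leaves 5 values, lowered the keratins that changed from 15 to 9 in TTF-derived ieSCs against MEFs and from 12 to 5 between the ieSC groups, and the genes that changed to 4763 (of 7512) and 2421 (of 5998), and to 5493 (of 8248) for the mean of both ieSC groups. Without the random block, 20 keratins changed in MEF-derived ieSCs against MEFs in place of 13. Leaving out 1 array at a time gave 13 to 15, 12 to 14 and 11 to 13 keratins in TTF-derived ieSCs against MEFs, in MEF-derived ieSCs against MEFs and between the ieSC groups, and 13 to 15 for the mean of both. Differences that did not pass reversed in Krt8 of MEF-derived ieSCs against MEFs (0.86 without MEF-derived preparation 1) and Krt18 of TTF-derived ieSCs against MEFs (-0.25 without TTF-derived preparation 2), and the cause was not tested. The preparation numbers are shared by the ieSC groups, but nothing in the labels says that a number marks a shared culture or day. Deviations of same-numbered samples from their group means correlated at 0.297 over 16650 genes, a single value with 2 numbers in each group. With the number as a replicate block on the 8 ieSC arrays, 16 keratins differed between the ieSC groups, against 13 without it, a fit chosen after seeing the data. Signal over background limits the keratins near the dim end: with dim values raised, Krt13 in MEF-derived ieSCs against MEFs (0.42), Krt20 between the ieSC groups (-0.32) and Krt34 in the mean of both ieSC groups (0.53) no longer passed.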

Other observations

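The keratins also differed between preparations of 1 kind of ieSC. Arrays of a name lay a median of 0.118 to 0.145 apart (log2) over the tested keratins, and the preparations lay a median of 0.484 apart in TTF-derived and 0.351 apart in MEF-derived ieSCs. The preparations were over 1 apart for 8 keratins in the TTF-derived and 9 in the MEF-derived group, which is 23.5% and 26.5% of those tested, beside 5.12% and 4.44% of all genes. Among these, Krt6b in the TTF-derived and Krt28 in the MEF-derived group are counted through a single array, since their arrays of a name lay farther apart than the preparations did. In both kinds of ieSC, preparation 2 was higher than preparation 1 in Krt8 (by 1.35 in TTF-derived and 2.27 in MEF-derived cells), Krt18 (1.02 and 1.13) and Krt76 (1.05 and 2.44). Krt14 ran in opposite directions (-2.69 and 1.35), as did Krt16 (-0.79 and 1.20). Krt80, a type II keratin of many epithelia, was lower in preparation 2 of both (-1.31 and -0.50).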
